A study of Mus musculus with 17 samples.

Results

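The keratin genes described here are all genes whose symbol is Krt directly followed by a number, without Krt8, Krt18 and Krt20. There were 50 of them among 53 such genes and among the 30406 genes shared by the gene lists of all libraries. Their levels were measured by droplet-based single-cell RNA sequencing in 8 skin libraries and, as a contrast, in 9 kidney libraries of mice treated from 8 weeks of age. All mice carried PDGFRb-Cre and a Z/EG reporter. The study's methods describe a sort of GFP+ cells for back skin, so the skin cells should derive from PDGFR-β+ cells. They describe none for kidney, where epithelium was 82.0% and 78.7% of kept cells in SARAWT vehicle 1 and 2, and how those cells were obtained was not tested. SARATg mice also carried a SARA transgene driven through this Cre, whereas SARAWT mice did not. Skin came from SARAWT mice given PBS (n = 3) or bleomycin (n = 3) and SARATg mice given PBS (n = 1) or bleomycin (n = 1), with subcutaneous bleomycin at 20 mg/kg, 3 times a week for 2 weeks according to the labels, whereas the study's methods give a daily schedule. Kidney came from SARAWT mice given vehicle (n = 3) or aristolochic acid (n = 3) and SARATg mice given vehicle (n = 2) or aristolochic acid (n = 1), with intraperitoneal aristolochic acid at 5 mg/kg, 3 times a week for 3 weeks. Nothing in the labels says that libraries came from separate animals, so the p-values measure the spread between libraries, which may be technical.

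Keratins form the intermediate filaments of epithelial cells, in which a type I keratin pairs with a type II keratin. In the epidermis, basal keratinocytes make Krt5 with Krt14, and cells that leave the basal layer make Krt1 with Krt10. Other pairs belong to the hair follicle, to injured epidermis or to simple epithelia such as ducts. The 50 genes lay in 2 clusters (build GRCm38), with 26 genes, mostly type I, on chromosome 11 between 99232761 and 100269871 and 24 genes, type II, on chromosome 15 between 101347444 and 101954287.

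Keratinocytes were gated as cells with at least 20 unique molecular identifiers (UMIs) of Krt5 and Krt14 together and no Ptprc UMI, Ptprc being the pan-leukocyte gene. The gate held 479 of 28978 skin cells. Replicates 1 to 3 of SARAWT PBS gave 50, 8 and 146 of these cells and those of SARAWT bleomycin gave 14, 21 and 24, while SARATg gave 138 with PBS and 78 with bleomycin. All 10 keratinocyte markers, which include the genes of the gate, were detected in the gated cells of every library, with a summed level of 15986 to 35675 UMIs per 1000000 UMIs (CPM). The 8 leukocyte markers summed to 69.4 to 799 CPM there and the 8 fibroblast markers to 24.9 to 241 CPM. Of the 28978 skin cells 18795 carried a Ptprc UMI and stayed under 20 UMIs of Krt5 and Krt14. The study describes activity of the Cre's promoter in embryonic inflammatory cells, so leukocytes can carry the sorted label, and how keratinocytes came into the sort was not tested.

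Several skin libraries stood apart. SARAWT PBS 2 had 776 kept cells, and 55.5% of its barcodes, 7 of its 8 gated ones included, also occurred in another skin library. So did 17.6% and 22.1% of the barcodes of SARAWT bleomycin 1 and 2 (2 of 14 and 4 of 21 gated ones). It was 7.38% in SARAWT PBS 1 (5 of 50 gated ones) and 0.594% to 0.824% in the rest. With 8 gated cells SARAWT PBS 2 did not enter the fits of keratinocytes, which needed 10. Zfyve9, the gene that encodes SARA, went against the wild-type label in the other SARAWT PBS libraries. It reached 615 CPM in SARAWT PBS 3, against 7.69 to 8.75 CPM in SARAWT bleomycin and 313 and 222 CPM in SARATg. In the library labelled SARAWT PBS 1, the human ZFYVE9 listed in its gene list reached 838 CPM, against 86.7 to 186 CPM in the other 3 libraries with that list. Both PBS libraries of the keratinocyte fit are therefore libraries labelled SARAWT that go against that label, and treatment and what sets these 2 libraries apart cannot be told apart there.

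The start regions of 33 of the 50 genes were found in RefSeq (GRCm38.p6). Those of Krt1, Krt6a, Krt15, Krt16 and Krt17 were not among them. The letters TATAAA, known from core promoters, stood on the gene's strand within the last 50 bases before the start in 14 of them (42.4%), against 2.63% of all 32851 promoters. Over 250 bases and on either strand, TATAAA was found in 48.5% of the 33 and in 12.4% of all promoters. TGACTCA, letters bound by AP-1, was found in 0 of the 33 and in 4.46% of all, and 33 regions are too few to read this as a lower share. The following 4 regions are the 120 bases before the start of the suprabasal Krt10, the inner root sheath genes Krt25 and Krt28 and the basal Krt5, each on the minus strand and printed 5′ to 3′ with TATAAA in capitals, because these genes mark the layers that the results compare. Krt10 lies at chr11:99389365-99389484, Krt25 at chr11:99322952-99323071, Krt28 at chr11:99374904-99375023 and Krt5 at chr15:101712906-101713025.
Krt10: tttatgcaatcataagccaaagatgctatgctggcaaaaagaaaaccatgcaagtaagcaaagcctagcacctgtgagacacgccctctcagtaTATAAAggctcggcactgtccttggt
Krt25: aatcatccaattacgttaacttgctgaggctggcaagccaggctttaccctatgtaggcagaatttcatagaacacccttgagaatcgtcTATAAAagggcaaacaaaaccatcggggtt
Krt28: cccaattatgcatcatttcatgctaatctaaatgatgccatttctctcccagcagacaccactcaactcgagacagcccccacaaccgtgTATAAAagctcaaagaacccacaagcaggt
Krt5: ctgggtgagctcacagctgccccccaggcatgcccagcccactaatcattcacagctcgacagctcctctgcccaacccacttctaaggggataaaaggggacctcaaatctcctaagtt
TATAAA began 26 bases before the start in Krt10 and 30 bases before it in Krt25 and Krt28, and these letters were not in the printed window of Krt5.

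Of the 50 keratin genes, 15 reached a mean of 10 CPM over the 7 libraries with at least 10 keratinocytes, 26 had lower means and 9 had no UMI there. Counting is by UMIs at the 3′ end, so CPM is not divided by gene length. Levels are ordered here as a description, because Krt5 and Krt14 chose the cells. Krt14 (6177 ± 2144 CPM, SD, n = 7) and Krt5 (3977 ± 1440) led, followed by Krt17 (2646 ± 1798), Krt15 (2233 ± 1781), Krt10 (2059 ± 1514), Krt79 (1812 ± 2103) and Krt1 (1173 ± 848). Krt14 and Krt17 share 9.53% of the 50-base words of their last 500 transcript bases, so a part of their reads may not be told apart. From Krt17 to Krt1 neighbours in this order differed by less than their spread. Krt6a (622 ± 1303), Krt77 (370 ± 335), Krt16 (248 ± 313) and Krt80 (121 ± 35.4) came next, and Krt75, Krt25, Krt28 and Krt32 had means of 11.6 to 58.4 CPM.

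**Figure D1:**
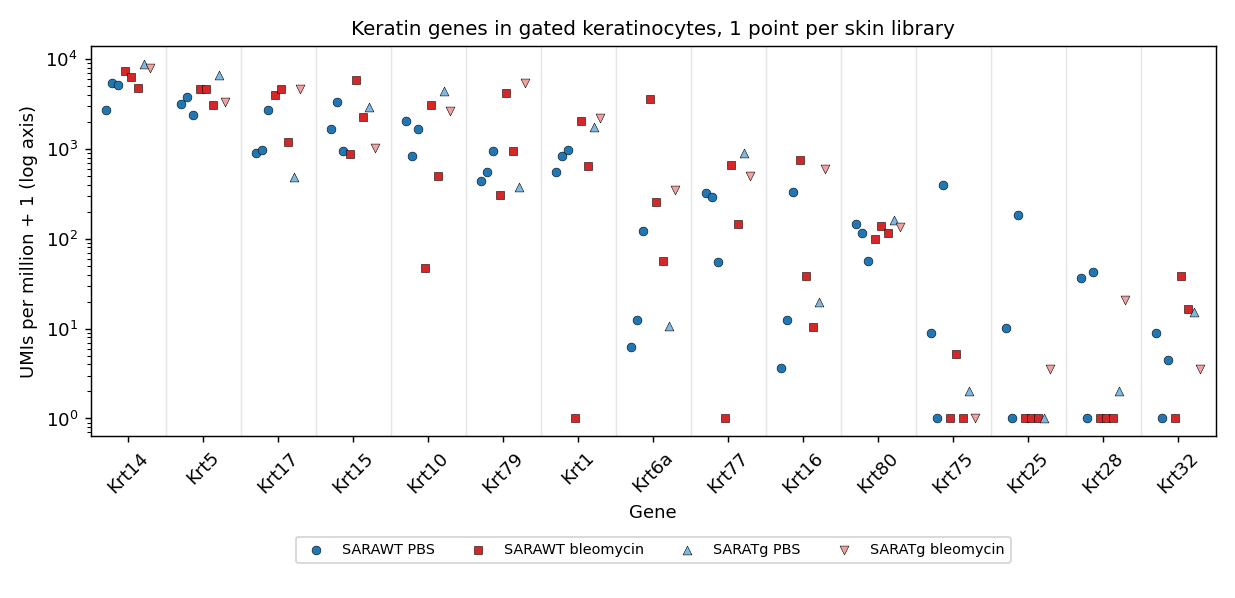
Levels of the 15 keratin genes with a mean of at least 10 CPM in gated keratinocytes, as CPM plus 1 on a log axis, with 1 point for each of the 8 skin libraries and the 4 groups by colour and shape. Krt14 and Krt5 lie at 2376 CPM or more in every library, whereas Krt6a runs from 5.27 to 3562 CPM and Krt28 sits at 0 in all 3 SARAWT bleomycin libraries.

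Type I keratins summed to more than type II keratins in every library, with and without the genes of the gate. The genes on chromosome 11 summed to 7358 to 19999.8 CPM and those on chromosome 15 to 4650 to 12047 CPM, and the ratio was 1.41 to 2.22 in the 8 libraries. Without Krt14 and Krt5, which chose the cells, it was 1.03 to 3.08. Keratin UMIs made up 1.19% to 3.18% of all UMIs of the gated cells.

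Suprabasal keratins were found in all libraries, with wide spread. Krt10 was at 2023, 833 and 1651 CPM in SARAWT PBS, 45.9, 3093 and 497 CPM in SARAWT bleomycin, 4436 CPM in SARATg PBS and 2669 CPM in SARATg bleomycin. Its partner Krt1 was at 560, 833 and 982 CPM in SARAWT PBS, 0, 2065 and 637 CPM in SARAWT bleomycin, and 1733 and 2235 CPM in the SARATg libraries. The treatment groups overlapped for both genes, and SARAWT bleomycin 1 was lowest for both. Single cells held 340 of the 740 Krt10 UMIs and 252 of the 494 Krt1 UMIs of SARAWT bleomycin 2. In SARAWT PBS 2 single cells held 70 of 72 and 71 of 72. Without shared barcodes suprabasal keratins held 4.63% of the keratin UMIs of SARAWT bleomycin 2, against 18.7% with them. Within cells Krt1 and Krt10 went together, since 93 of the 104 gated cells with at least 5 Krt1 UMIs also had at least 5 Krt10 UMIs. Krt77, another suprabasal type II keratin, followed Krt10 in 56 of 77 cells.

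Of the keratins of the outer root sheath and of injured epidermis, Krt17 had at least 5 UMIs in 173 of the 479 gated cells, Krt16 in 46 and Krt6a in 24. Krt6a was at 5.27, 11.6 and 122 CPM in SARAWT PBS and at 3562, 255 and 56.0 CPM in SARAWT bleomycin, so the groups overlapped. A single cell held 370 of the 466 Krt6a UMIs of SARAWT bleomycin 1, and a single cell held 60 of the 61 in SARAWT bleomycin 2. Its type I partner Krt16 was at 2.63, 11.6 and 330 CPM in SARAWT PBS and at 749, 37.6 and 9.33 CPM in SARAWT bleomycin. Krt17, expressed through the outer root sheath, was at 902, 983 and 2727 CPM in SARAWT PBS and at 3952, 4631 and 1197 CPM in SARAWT bleomycin. Of the 24 gated cells with at least 5 Krt6a UMIs, 20 had as many of Krt17 and 10 as many of Krt16. Single cells also held 819 of the 1108 Krt17 UMIs of SARAWT bleomycin 2 and 81 of the 85 of SARAWT PBS 2.

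Of the keratins of deeper follicle layers, Krt75 and Krt25 came mostly from SARAWT PBS 3, whereas Krt28 had a similar level in SARAWT PBS 1. Krt75, a keratin of the companion layer, was at 396 CPM there and at 0 to 7.90 CPM in the other 7 libraries, and 5 cells held 99.0% of its UMIs. Krt25, of the inner root sheath, was at 185 CPM there and at 0 to 9.22 CPM elsewhere, and 15 cells had at least 5 UMIs. Krt28, another inner root sheath gene of the chromosome 11 cluster, was at 35.5, 0 and 42.2 CPM in SARAWT PBS and at 0 in all 3 SARAWT bleomycin libraries. A count of 0 allowed up to 22.9, 12.5 and 9.33 CPM there (3 UMIs per library), and up to 34.7 CPM in SARAWT PBS 2. Of the 27 Krt28 UMIs of SARAWT PBS 1, 20 lay in 1 cell. Krt79, found in the upper follicle and sebaceous duct, was at 440, 555 and 956 CPM in SARAWT PBS and at 306, 4217 and 958 CPM in SARAWT bleomycin, and 644 of the 1009 UMIs of SARAWT bleomycin 2 lay in 1 cell.

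Whether bleomycin changed keratins in SARAWT keratinocytes was asked with the 2 PBS and 3 bleomycin libraries that had enough cells. With edgeR's quasi-likelihood test, 0 of 4749 genes passed an adjusted p of 0.05 (0% called), and 621 had an unadjusted p under 0.05. Of the 48 keratin genes that did not set the gate, 10 were tested and 0 were called. Krt28 (adjusted p = 0.101, edgeR) and Krt6a (log2 fold change 4.31 ± 1.72, SE, adjusted p = 0.330, edgeR) had an unadjusted p under 0.05. The log2 fold change of Krt6a was 1.14 without SARAWT bleomycin 1 and 7.91 without SARAWT PBS 3, and 1.11 with the gate at 50 UMIs. DESeq2 called 83 genes, among them Krt28. Krt28 passed the filter on low counts only through PBS, having no UMI with bleomycin, so its p-values are no support for a difference. With the replicate number as a block, which leaves SARAWT bleomycin 2 without a partner, edgeR called 46 genes, among them Krt10 (log2 fold change -3.18 ± 0.61, SE, adjusted p = 0.0132, against -0.56 ± 1.03 and 0.899 without the block). The 10 tested keratin genes, Krt28 included, had a median log2 fold change of 0.62, against 0.03 over all genes tested. The gate is a fixed number of keratin UMIs, and the depth of the gated cells differed between treatments. Their median UMIs were 14178.5 and 17978.5 in SARAWT PBS 1 and 3 and 7095, 8954 and 12600.5 in SARAWT bleomycin. Whether gate and depth set this median was not tested. Of other lists, 2 of 7 tested cornified envelope genes, 5 of 16 desmosome and hemidesmosome genes and 0 of 10 keratinocyte transcription factors had an unadjusted p under 0.05, and 0 of each were called.

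The share of cells inside the gate did not overlap between SARAWT treatments with the gate at 20 or 10 UMIs, but did with the gate at 50 UMIs or at 1% of UMIs. Keratinocytes were 1.27%, 1.03% and 3.27% of kept cells in SARAWT PBS and 0.661%, 0.986% and 0.387% in SARAWT bleomycin. The difference was 1.18 percentage points between means of 1.86 ± 1.23 (SD, n = 3) and 0.678 ± 0.2999, and the two-sided exact permutation p was 0.1, the smallest that 3 against 3 allows, so the threshold of 0.05 could not be reached. With the gate at 10 UMIs the shares were 1.65%, 1.16% and 4.01% with PBS and 0.708%, 1.08% and 0.532% with bleomycin. With the gate at 50 UMIs they were 0.609%, 0.387% and 2.26% with PBS and 0.425%, 0.610% and 0.258% with bleomycin. With the gate at 1% of a cell's UMIs they were 0.254%, 0.258% and 0.851% with PBS and 0.425%, 0.563% and 0.0967% with bleomycin. The groups overlapped under both, and also without shared barcodes, where PBS 2 had 0.319% from 1 cell. Without SARAWT PBS 3 the difference in means (bleomycin minus PBS) was -0.472 points. PBS 1 and PBS 3 go against their genotype label here too, and PBS 2 (1.03%) lay next to bleomycin 2 (0.986%). The share in SARATg was 3.14% with PBS (exact binomial 95% interval 2.65 to 3.70) and 1.58% with bleomycin (1.25 to 1.96), with 1 library each and no test. The interval covers counting error only, and how the sort set these shares was not tested.

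The split of keratin UMIs among groups of keratins is given as a description, with no test, because Krt5 and Krt14, which set the gate, are in the basal group and in the total of every share. Basal keratins held 62.3%, 77.4% and 52.7% of keratin UMIs in SARAWT PBS keratinocytes and 59.6%, 52.5% and 73.5% in SARAWT bleomycin. Suprabasal keratins held 25.5%, 12.8% and 17.1% with PBS and 0.669%, 18.7% and 10.1% with bleomycin. Injury and outer root sheath keratins held 7.64%, 6.17% and 22.3% with PBS and 38.2%, 15.4% and 9.14% with bleomycin. The PBS and bleomycin libraries overlapped in each of these 3 groups. Without shared barcodes the suprabasal part was 26.2%, 1.18% and 17.1% with PBS (45, 1 and 146 cells). It was then 0.633%, 4.63% and 10.4% with bleomycin (12, 17 and 23 cells), and the overlap came from the 1 cell of PBS 2. With the gate at 1% of UMIs the basal part was 87.6%, 98.5% and 81.2% with PBS (10, 2 and 38 cells) and 55.0%, 82.2% and 76.4% with bleomycin (9, 12 and 6 cells).

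**Figure D2:**
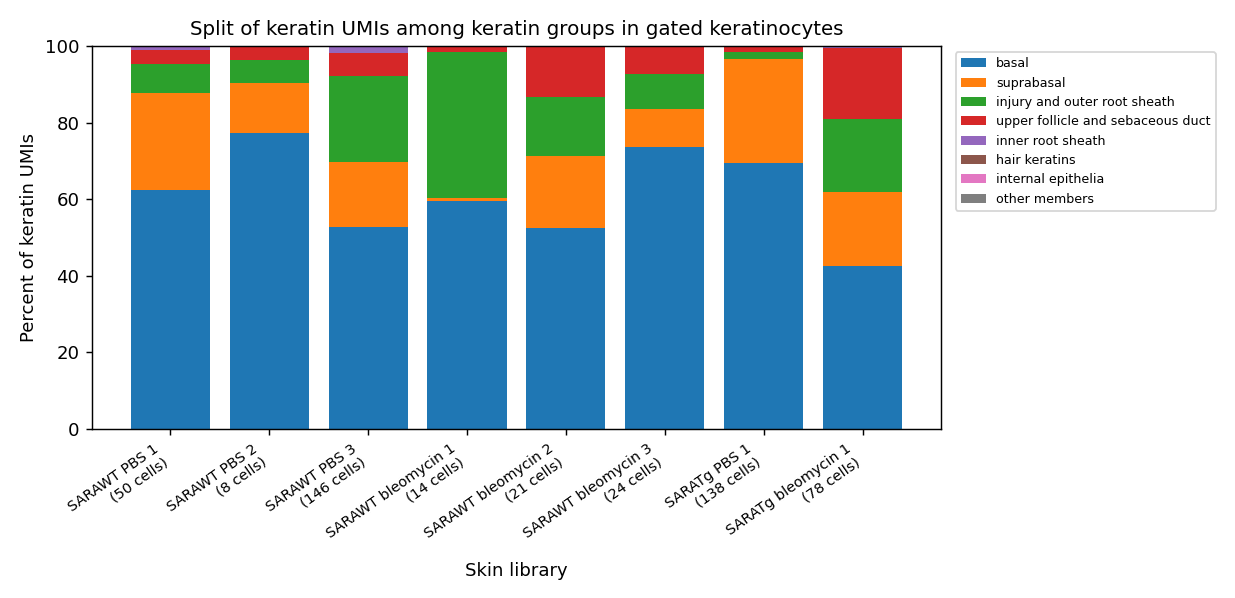
Percent of keratin UMIs in gated keratinocytes that fell on each of 8 groups of keratin genes, as 1 stacked bar per skin library with its number of cells. The suprabasal part is 0.669% in SARAWT bleomycin 1, which has 14 cells, and 10.1% to 27.2% in the other libraries.

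The SARATg libraries were compared with SARAWT in a fit over the 7 libraries with treatment and gene list as terms. Of the SARAWT skin libraries only PBS 3 and bleomycin 3 share the gene list of the SARATg libraries. With the gene list as a term the genotype difference therefore rests on these SARAWT libraries, and PBS 3 goes against its label. With edgeR 0 of 8274 genes were called (0% called) and 288 had an unadjusted p under 0.05, whereas DESeq2 called 2. Of 11 keratin genes tested outside the gate genes 0 were called by either tool. The SARAWT libraries here include PBS 1 and PBS 3, which go against their label. Krt77 had an unadjusted p under 0.05 (log2 fold change 2.88 ± 1.19, SE, adjusted p = 1, edgeR). Over the alternatives its log2 fold change ran from 1.36 to 3.76. Krt77 was at 323, 289 and 54.4 CPM in SARAWT PBS, 0, 665 and 146 CPM in SARAWT bleomycin, 901 CPM in SARATg PBS and 502 CPM in SARATg bleomycin, so the ranges overlapped. Within SARATg, Krt79 was at 377 CPM with PBS (exact Poisson 95% interval 350 to 406) and 5428 CPM with bleomycin (5296 to 5562), and Krt17 was at 486 and 4628 CPM. These are 1 library each, with no test, and the intervals cover counting error only.

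Keratin UMIs also lay outside the gate. Cells with at least 20 UMIs of Krt1 and Krt10 together, no Ptprc UMI and under 20 UMIs of Krt5 and Krt14 numbered 26, 4 and 17 in SARAWT PBS, 4, 9 and 2 in SARAWT bleomycin, and 107 and 61 in SARATg. This class was chosen after its values were seen, and high Krt1 and Krt10 and low Krt5 follow from how it was chosen. Over the 4 libraries with at least 10 such cells, Krt10 was at 17989 ± 3205 CPM (SD), Krt1 at 9483 ± 3446 and Krt77 at 4436 ± 2320, and Krt5 was at 45.8 ± 35.1. It held 4.78% to 56.2% of a skin library's keratin UMIs, and the gate held 26.8% to 54.1%.

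Outside the gate the summed keratin level did not overlap between SARAWT treatments, but it did once the cells rich in Krt1 and Krt10 were left out. Keratin genes other than Krt5 and Krt14 summed to 643, 483 and 782 CPM in SARAWT PBS and to 106, 335 and 212 CPM in SARAWT bleomycin, and the groups did not overlap. The cells outside the gate include those with at least 20 UMIs of Krt5 and Krt14 and a Ptprc UMI, which numbered 9, 0 and 18 with PBS and 0, 0 and 5 with bleomycin. Without them the sums were 621, 483 and 694 CPM against 106, 335 and 208 CPM. Without the 26, 4 and 17 PBS cells and the 4, 9 and 2 bleomycin cells of the Krt1 and Krt10 class they were 234, 69.2 and 528 CPM against 57.0, 73.2 and 198 CPM, so the groups overlapped.

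With edgeR and no replicate block 0 of 15158 genes were called (0% called), with 2712 at an unadjusted p under 0.05. The gene list, with which correlations between these libraries went, was not a term in this fit. The lack of calls therefore does not show that bleomycin left these cells unchanged. Of the 48 keratin genes that did not set the gate 16 were tested, 0 were called and 5 had such a p. The median log2 fold change of the 16 was -1.51, against 0.01 over all genes tested. Of the 16, 13 had a value below 0, as had 7438 of the 15158 genes. Genes that passed the filter on low counts through PBS, such as Krt36, are among the 16, so these values are a description. DESeq2 called 1216 genes, with Krt15, Krt19, Krt28 and Krt36 among them. With PBS 2 as the lone PBS library, an alternative chosen after the data were seen, edgeR called 20 genes, 0 of them keratins, and without PBS 3 it called 1042, among them Krt36. PBS 2 had 12.01 CPM of mouse Zfyve9 and 186 CPM of human ZFYVE9, the latter above the 86.7 and 112 CPM of bleomycin 1 and 2. With the replicate number as a block, which was not shown to pair these libraries, edgeR called 618 genes, with Krt36 (adjusted p = 0.0332, edgeR) among them. Krt36 passed the filter on low counts through the PBS libraries, having 1 UMI in all bleomycin libraries together, so its calls are no support for a difference.

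Outside the gate 8 of the 50 keratin genes lay lower in every SARAWT bleomycin library than in any SARAWT PBS library, and 42 overlapped. The share of all genes that separate in this way was not counted, so this count is a description and no result about keratin genes. Krt5, which set the gate, and Krt36, which rests on few UMIs, are among the 8. Krt15, a keratin of basal and follicle bulge cells, was at 25.4, 14.0 and 17.7 CPM outside the gate with PBS and 2.26, 8.48 and 3.84 CPM with bleomycin (log2 fold change -1.83 ± 0.49, SE, adjusted p = 0.126, edgeR). Every PBS library lay above every bleomycin library, also without the cells that passed the UMI gate with a Ptprc UMI (11.2, 14.0 and 12.5 CPM against 2.26, 8.48 and 1.19 CPM), and also without those and the Krt1 and Krt10 class (4.11, 9.33 and 8.51 CPM against 2.23, 2.26 and 1.11 CPM). Krt5 and Krt14 set the gate and are given with no test. Krt5 was at 31.0, 6.04 and 40.8 CPM with PBS and 1.42, 1.62 and 5.19 CPM with bleomycin, and without those cells at 8.27, 6.04 and 14.5 CPM against 1.42, 1.62 and 0.873 CPM. Krt14 was at 32.6, 4.77 and 60.6 CPM against 1.11, 3.43 and 7.89 CPM, and without those cells at 5.49, 4.77 and 6.66 CPM against 1.11, 3.43 and 2.36 CPM. Most of the Krt5 and Krt14 of PBS 1 and PBS 3 outside the gate thus lay in 9 and 18 cells. Krt36, a hair keratin, was at 0.635, 1.27 and 1.11 CPM against 0, 0.0476 and 0 CPM, from 20, 4 and 49 UMIs against 0, 1 and 0. Suprabasal Krt10 was at 263, 245 and 143 CPM with PBS and 36.9, 161 and 15.6 CPM with bleomycin, and in SARATg at 1058 CPM with PBS and 569 CPM with bleomycin. Krt1 was at 116, 107 and 69.8 CPM with PBS and 17.2, 64.9 and 4.77 CPM with bleomycin, without overlap, but PBS 3 was at 56.2 CPM without the cells past the UMI gate, under bleomycin 2. Krt17 and Krt79 overlapped widely, Krt17 at 59.8, 2.86 and 150.4 CPM against 14.5, 7.77 and 83.5 CPM, with PBS 2 lowest. In fibroblast marker cells Krt10 was at 1062 CPM in SARATg PBS (of 17569361 UMIs), against 25.8 to 90.6 CPM in the other 7 libraries. Fibroblast marker cells can also belong to the Krt1 and Krt10 class. All SARATg PBS cells outside the gate held 53949 Krt10 UMIs, and 6011 without that class. Most of the Krt10 of SARATg PBS fibroblast marker cells therefore lay in cells of both classes. Cells with a Ptprc UMI and under 20 UMIs of Krt5 and Krt14 held 181, 26.1 and 102 CPM of keratin genes with PBS and 30.3, 58.6 and 102 CPM with bleomycin, and 299 and 443 CPM in SARATg. How much of the keratin outside the gate was free RNA in the droplets was not tested. Fewer cells that carry keratin RNA, less keratin RNA per cell and less free RNA cannot be told apart in these sums.

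No gene of 3 other lists was called by edgeR in these cells. The list of keratinocyte transcription factors includes Gata3, which the study ties to the activation of Th2 lymphocytes, so it is not limited to keratinocytes. Of keratinocyte transcription factors 9 of 11 tested had an unadjusted p under 0.05, with a median log2 fold change of -1.22, as did 5 of 15 desmosome and hemidesmosome genes (-1.36) and 3 of 9 cornified envelope genes (-1.03). The share of all genes with such a p was 17.9%. In the same cells the 10 keratinocyte markers summed to 608, 504 and 958 CPM with PBS and 152, 306 and 174 CPM with bleomycin. The 8 fibroblast markers summed to 12655, 15243 and 9359 CPM with PBS and 3944, 3786 and 2423 CPM with bleomycin, also without overlap. Their part in the result was not tested.

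**Figure D3:**
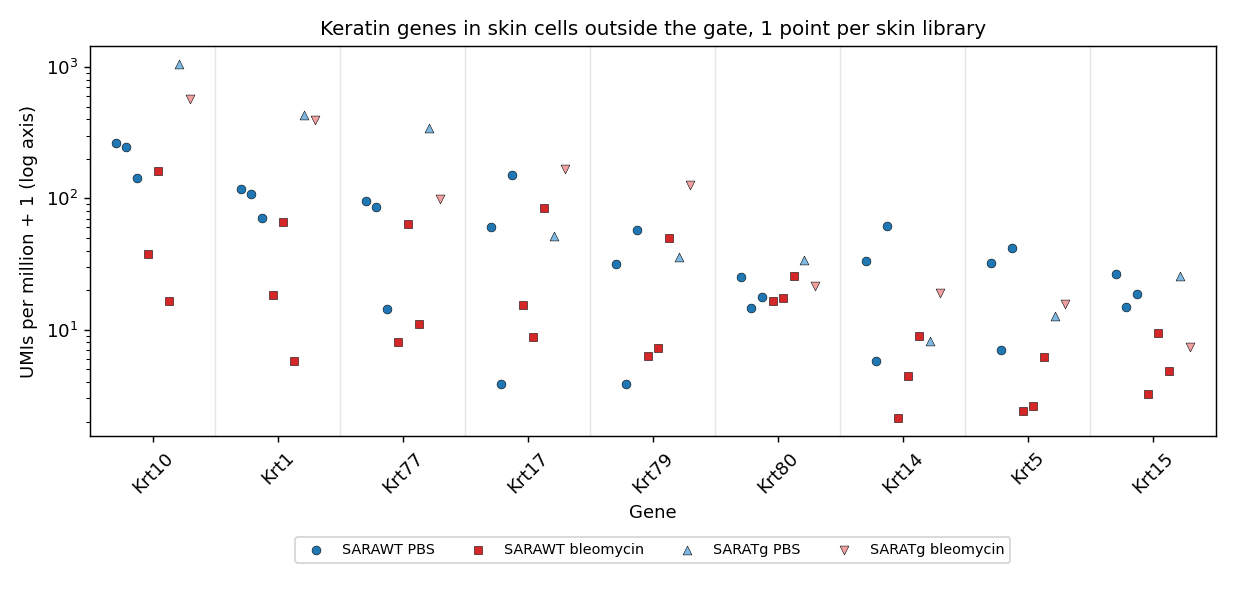
Levels of the 9 keratin genes with a mean of at least 10 CPM in skin cells outside the gate, as CPM plus 1 on a log axis, with 1 point per skin library and the 4 groups by colour and shape. Krt1, Krt5 and Krt15 lie higher in every SARAWT PBS library than in any SARAWT bleomycin library, whereas the other genes drawn overlap. Krt80 stays between 13.7 and 33.2 CPM in all 8.

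Krt80 varied little among cells with a Ptprc UMI and under 20 UMIs of Krt5 and Krt14. It was at 13.8 to 27.1 CPM in the 8 libraries (mean 20.0 ± 4.46, SD), against 3.92 to 204 CPM for Krt10 and 0 to 42.9 CPM for Krt77. The hair keratins Krt35 and Krt32 outside the gate came mostly from SARAWT PBS 3, where Krt35 was at 29.4 CPM and Krt32 at 17.3 CPM, against at most 0.318 and 0.157 CPM in the other 7 libraries. In that library cells with skeletal muscle markers had 321 CPM of Krt35 and 176 CPM of Krt32, and those cells had none in the other 7. They were 393 cells with 981639 of the 44137708 UMIs outside the gate there, so most of the Krt35 and Krt32 lay in other cells.

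Of the 50 keratin genes, kidney epithelium was led by others than skin keratinocytes, with Krt10 found in both. Krt8 and Krt18, which are not among the 50, had means of 170 and 81.6 CPM in kidney epithelium. Over 21656 epithelial cells of 9 libraries, Krt7 (81.4 ± 66.1 CPM, SD, n = 9), Krt19 (42.0 ± 44.7) and Krt10 (23.6 ± 6.10), the first 2 being keratins of ducts and other simple epithelia, had means of at least 10 CPM, against 5.87, 2.37 and 2059 CPM in skin keratinocytes. Krt14 was at 0.192 ± 0.508 CPM and Krt5 at 4.08 ± 5.82 CPM. Of the epithelial cells 19811 had proximal tubule markers, where Krt7 was at 2.91 ± 1.51 CPM. Krt7 was at 1581 ± 732 CPM in cells with principal cell markers (167 cells, n = 6), 553 ± 142 in those with intercalated cell markers, 355 ± 154 in those with thick ascending limb markers and 208 ± 44.8 in those with distal convoluted tubule markers. Principal marker cells also had Krt19 at 1449 ± 919 CPM, Krt15 at 379 ± 431 CPM and Krt23 at 58.5 ± 30.6 CPM. Krt80 was at 57.4 ± 28.8 CPM in intercalated marker cells.

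**Figure D4:**
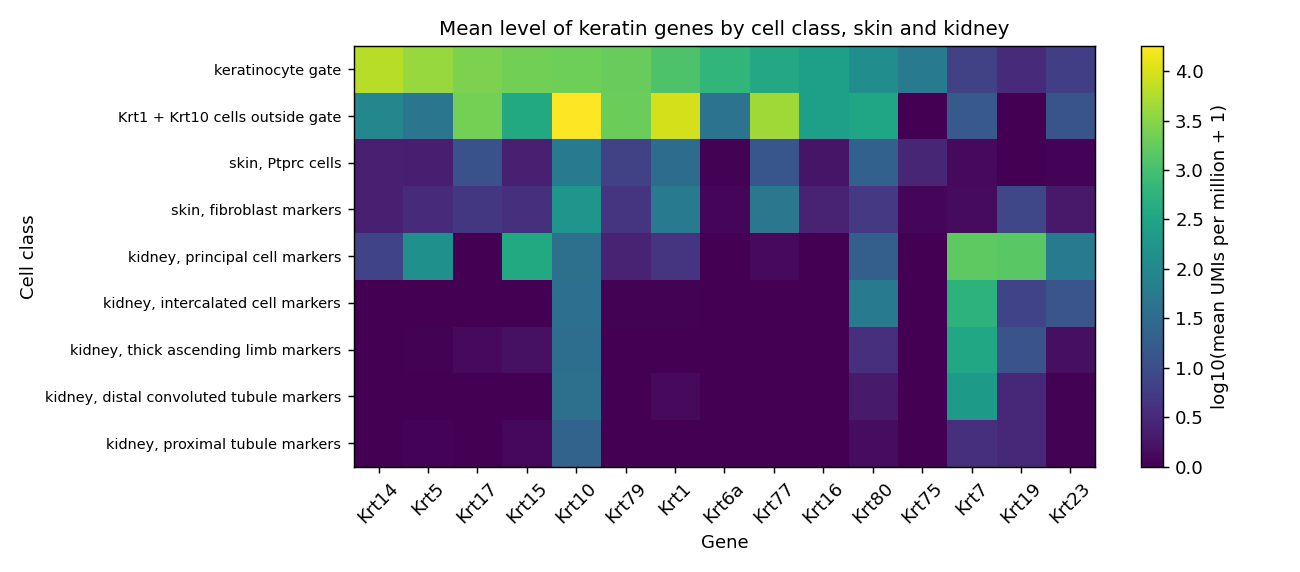
Mean level of 15 keratin genes, as log10 of CPM plus 1 by colour, in 4 classes of skin cells and 5 of kidney cells, each a mean over libraries with at least 10 cells of the class. Krt10 is at 17989 CPM in the Krt1 and Krt10 cells outside the gate, which were chosen on it, and Krt7 and Krt19 are highest in principal marker cells of kidney (1581 and 1449 CPM).

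Aristolochic acid, a nephrotoxin that injures the proximal tubule, was compared with vehicle in SARAWT kidney epithelium. With edgeR 0 of 12537 genes were called (0% called), with 906 at an unadjusted p under 0.05, and DESeq2 called 40. Of 7 keratin genes tested 0 were called by either tool and 0 had an unadjusted p under 0.05 with edgeR, with adjusted p of 0.689 or more. Krt7 was at 10.3, 35.8 and 167 CPM with vehicle and 166, 44.8 and 126 CPM with aristolochic acid. Krt19 was at 3.97, 15.4 and 130 CPM with vehicle and 76.5, 11.8 and 27.4 CPM with aristolochic acid. The groups overlapped for both genes. Vehicle libraries 1 and 2 had 6722 and 7276 epithelial cells, against 880 in vehicle 3 and 523 to 1025 with aristolochic acid, and without vehicle 3 the fit called 189 genes, 0 of them keratins. Zfyve9 was at 159 CPM in the library labelled SARAWT aristolochic acid 1, against 9.71 to 31.5 CPM in the other 5 libraries compared, and without that library 0 genes were called. In SARATg it was at 99.4 and 93.9 CPM with vehicle and 19.7 CPM with aristolochic acid.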

How the data were processed

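Skin and kidney cells were profiled with the 10x Genomics 3′ v3 protocol. The deposited files hold raw UMI counts, 1 value for each gene in each barcode, and were not normalized. The authors counted with Cell Ranger, and the file headers give version 4.0.0 (4 skin libraries), 3.1.0 (4 skin libraries) or 3.0.2 (9 kidney libraries), and the processing notes name mm10. Replicates were not pooled. Total counts per library were 3355217 to 69765525 UMIs in skin and 28660151 to 137093834 in kidney.

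A cell was kept if it had 200 genes or more, a mitochondrial share of no more than 20% and no doublet call (highest scrublet scores in scanpy 1.11.5, 0.8% of cells for every 1000). Kidney epithelium had no Ptprc UMI and at least 2 markers of 1 tubule list. Counts summed over the cells of a class in each library entered the two-sided quasi-likelihood test of edgeR 4.0.16 (R 4.3.3) after TMM scaling and filterByExpr, with Benjamini-Hochberg adjustment, which was checked on simulated data. DESeq2 1.42.0 was an alternative. Shares were compared by exact permutation. Positions come from GENCODE vM21 (GRCm38). After group means were taken out, other skin cells of SARAWT libraries with the same replicate number correlated in all 3 pairs (r = 0.247, 0.126 and 0.567). Pairs with unlike numbers that shared a gene list correlated alike (r = 0.212 and 0.252), and pairs across gene lists were at -0.434 to -0.289. The correlations thus went with the gene list, and the numbers were not shown to pair single libraries. Members and gene lists were chosen with earlier results of these data known. Keratin genes with a mean of at least 10 CPM in keratinocytes, other skin cells or kidney epithelium are named, with the others by count. Krt23, Krt35 and Krt36 lie outside this rule and were chosen after their values were seen.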

Additional observations from a re-analysis of the deposited data

Results flagged for a closer look

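In kidney, 7 of 58140 kept cells passed the skin keratinocyte gate: 4 in SARAWT vehicle 3, 1 in SARAWT aristolochic acid 1 and 2 in SARATg aristolochic acid. They were not left out of kidney epithelium, and how many of them counted as epithelium was not determined. Each had 20 to 39 Krt5 UMIs and UMIs of Krt7, Krt19 and Trp63, and Krt14 reached 20 UMIs in 1 of them and at most 4 in the others. Upk1b, a uroplakin of the urothelium, had 5 to 18 UMIs in 6 of them, and Upk3a, another uroplakin, had 9 to 134 UMIs in 5.

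Krt25 and Krt28 in keratinocytes had no UMI in any SARAWT bleomycin library and had UMIs in both SARAWT PBS libraries with at least 10 keratinocytes, whereas the value in SARATg bleomycin exceeded that in SARATg PBS by 2.51 CPM for Krt25 (0 to 2.51, from 0 and 3 UMIs) and 19.1 CPM for Krt28 (1.03 to 20.1, from 2 and 24 UMIs, 16 of the 24 in 1 cell). A count of 0 allows 22.9, 12.5 and 9.33 CPM in the SARAWT bleomycin libraries, so Krt25 was not shown to be lower there than in SARAWT PBS 1 (9.22 CPM, 7 UMIs). In SARATg bleomycin Krt25 rests on 3 UMIs, 2 of them in 1 cell, so it was not shown to be higher there than in SARATg PBS. The difference between genotypes was not tested.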

How the results depend on the processing

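Limits are the number of keratinocytes, 14 to 146 per library that entered, and the PBS libraries that go against their genotype label. Counts of calls changed with the tool, the filter, the gate and single libraries, and the cause was not tested. In SARAWT keratinocytes the count of 0 genes became 83 with DESeq2 (1 keratin gene), 386 without a filter on low counts (5), 46 with the replicate block (1, Krt10), 17 and 2 with the gate at 10 and 50 UMIs (1 and 0), 29 with the gate at 1% of UMIs (2), 18 without shared barcodes (0) and 0 to 33 with 1 library left out (0 to 2). Leaving out SARAWT PBS 1 gave 33, SARAWT PBS 3 14 and SARAWT bleomycin 2 2. For SARATg against SARAWT it became 2 with DESeq2 (0), 69 without the filter (6), 61 with the gate at 1% (4) and 0 to 13 with 1 library left out (0 to 2), with 13 without SARATg bleomycin and 5 without SARAWT bleomycin 3. In other skin cells, where the keratin counts include Krt5, it became 1216 with DESeq2 (5), 397 without the filter (3), 618 with the replicate block (2) and 0 to 1042 with 1 library left out (0 to 1), where leaving out SARAWT PBS 3 gave 1042. In kidney epithelium it became 40 with DESeq2 (0) and 0 to 189 with 1 library left out (0).

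After seeing the data, 2 alternatives were added. Libraries with at least 5 keratinocytes gave 0 genes in both keratinocyte fits. SARAWT PBS 2 as the lone PBS library, assumed to vary like the bleomycin libraries, gave 0 in keratinocytes and 20 in other cells, with 0 keratin genes in both. Same-numbered libraries were correlated at -0.0354 to 0.180 in keratinocytes and at -0.218 to 0.214 in kidney. The difference in gate share stayed below 0 under all 13 alternatives (-1.59 to -0.0925 percentage points), but the groups overlapped with the gate at 50 UMIs (-0.655), at 1% of UMIs (-0.0925) and without shared barcodes (-0.901), and it was -0.472 without SARAWT PBS 3. The replicate block gave -1.18. Among keratin groups the gate at 1% of UMIs turned the inner root sheath difference to 0.0130 and that of internal epithelia to 0.0121 percentage points, and with 1 library left out the basal difference ran from -8.02 to 4.44 (4.44 without SARAWT PBS 2, 2.47 without SARAWT bleomycin 2) and the upper follicle one from -0.170 (without SARAWT bleomycin 2) to 5.72 points.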
